A study of Mus musculus with 101 samples.

Results

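The 2 Irak3 regions are capture targets inside the mouse gene Irak3 that the authors placed in a category named for a comparison of B6J with another inbred mouse strain, called the B6J category below. They were 2 of the 92 regions of that category and 2 of 868 target regions in all. They were chosen by their methylation means in 4 groups of embryonic stem cell lines, so those means are described below and not tested. The lines came from Diversity Outbred mice, an outbred stock descended from several inbred founder strains, and were cultured with serum, LIF and 2i, which keeps mouse stem cells in a naive state. Methylation was read by EM-seq, in which enzymes instead of bisulfite convert unmethylated cytosines, after capture with a Twist panel. The series was designed to measure how much DNA methylation varies among such lines.

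The region table held 85 columns, each named for a line, and the groups are the prefixes of those names: 28 columns of B1, 18 of B2, 20 of B3A and 19 of B3B. The labels do not say what the prefixes stand for, and the founder alleles each line carries at Irak3 were not analysed here. All groups share the cell type, the culture and the assay. Each column is treated as 1 line, although for some columns the labels do not settle which library or line it is, and spreads between columns mix biological and technical variation.

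Irak3 encodes a member of the interleukin-1 receptor associated kinase family, also called IRAK-M, that lacks normal kinase activity. In monocytes and macrophages it is known to restrain signalling from Toll-like receptors and the interleukin-1 receptor. DNA methylation is the addition of a methyl group to cytosine, mostly at CpG dinucleotides. Mouse stem cells kept in 2i are known for low methylation over the genome.

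Region 1 spans chr10:120168875-120169430 (556 bp) and region 2 spans chr10:120169763-120170251 (489 bp), in mm10. They lie 332 bp apart, within the 60483 bp of Irak3 (chr10:120141648-120202130, minus strand in RefSeq). Region 1 lies 32.7 kb and region 2 lies 31.9 kb from the upper end of the gene, where its transcription starts. The nearest of 2 RefSeq promoter windows of Irak3 lies 32.12 kb from region 1 and 31.3 kb from region 2. Both regions are therefore near the middle of the gene and away from its start. The only RefSeq promoter window within 5 kb belongs to the gene Gm34545, 4800 bp above region 1 and 3979 bp above region 2. Whether the regions are exonic or intronic was not determined, and no CpG of the 7917 in the deposited CpG table lies in either region or anywhere in Irak3.

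Both regions were lowly methylated in most lines and highly methylated in a few. Region 1 had a mean of 11.8% ± 17.5 (SD, n = 82 lines), a median of 4.78% and a range from 0% to 80.0%. Region 2 had a mean of 9.97% ± 14.01 (SD, n = 85), a median of 3.82% and a range from 0% to 68.7%. The means stood above the medians, and few lines held the high values. Region 1 was below 5% in 41 lines and listed at 0% in 13 of them, while 17 lines were above 20% and 6 above 50%. Region 2 was below 5% in 48 lines and at 0% in 11 of them, with 14 lines above 20% and 2 above 50%. The depth behind each value is unknown, so a listed 0% is not shown to be an absence of methylation. Region 1 had no value in the lines B1dA18, B1dB29 and B3Bd23, and for these the Irak3 level used below is that of region 2 alone.

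The high values were all in lines with the prefix B1 or B2. In B1, region 1 ran from 1.29% through a median of 12.3% to 80.0%, with a mean of 23.3% ± 23.7 (SD, n = 26). In B2 it ran from 0% through 7.69% to 57.0%, with a mean of 13.2% ± 14.9 (SD, n = 18). The B1 and B2 lines thus covered most of the range between unmethylated and strongly methylated, and overlapped each other. In B3A region 1 ran from 0% through 2.00% to 18.1%, with a mean of 3.24% ± 4.30 (SD, n = 20). In B3B it ran from 0% through 1.82% to 13.3%, with a mean of 3.13% ± 3.72 (SD, n = 18). No B3A or B3B line passed 20% at either region, whereas the lower lines of B1 and B2 lay within the B3A and B3B range.

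Region 2 showed the same layout. Its B1 values ran from 0% through a median of 12.8% to 68.7%, and its B2 values from 0% through 5.91% to 42.9%. Its B3A values ran from 0% through 1.21% to 14.2%, and its B3B values from 0% through 2.25% to 17.5%. The order of B3A and B3B by mean was not the same at the 2 regions, and in both the difference between them was far smaller than the SD between lines. These values chose the regions and are a description. As background, limma's F test called 81.6% of the 787 kept regions (those measured in 80% of the lines or more) different between prefixes (Benjamini-Hochberg adjusted p below 0.05), and nothing is read from it for Irak3.

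**Figure D1:**
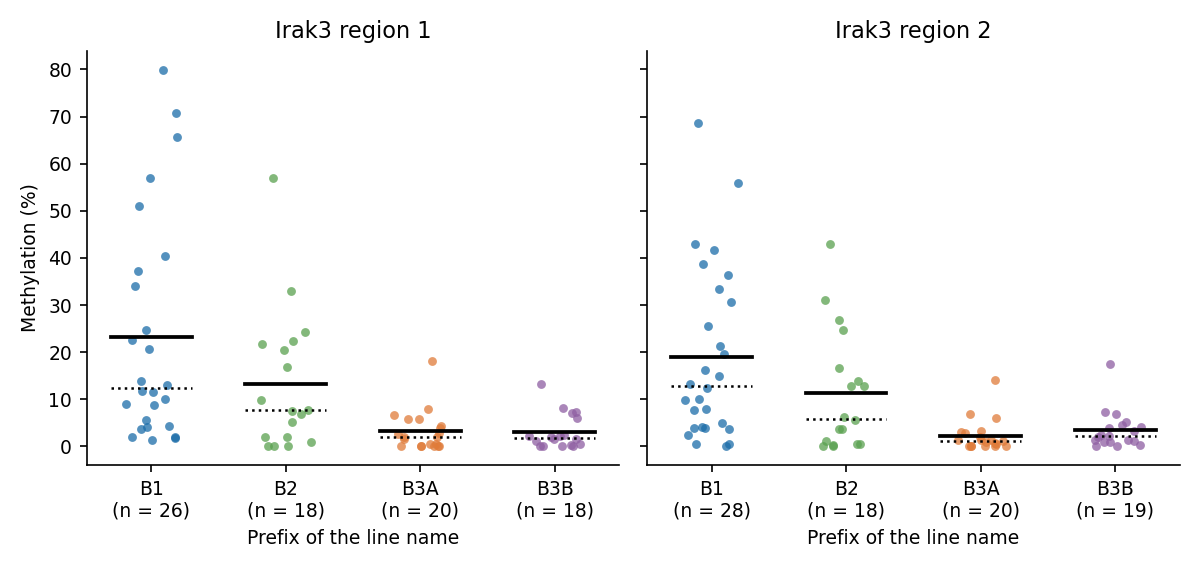
Methylation in percent (vertical axis) at the 2 Irak3 regions by prefix of the line name (horizontal axis). Each point is 1 line, solid bars are means and dotted bars medians; every line above 20% belongs to B1 or B2.

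Lines with the prefixes B3A and B3B were also lower over the panel as a whole. The line mean, taken for each line over the 785 other kept regions, stood at 24.5% ± 9.25 (SD, n = 28) for B1 and 20.7% ± 8.45 (n = 18) for B2. It stood at 12.8% ± 7.77 (n = 20) for B3A and 15.9% ± 10.5 (n = 19) for B3B. The B3A and B3B mean was 17.4% of the B1 and B2 mean at region 1 and 18.98% at region 2. Over the 785 other regions the median of this percentage was 63.3%, and none was smaller than at Irak3. This ratio uses the contrast that chose the regions. With the line mean as a covariate, limma's F test called 26 of 787 regions between prefixes, against 642 without it. In all limma fits this covariate is the mean log2 odds, methylated against unmethylated, over the same 785 regions.

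The separation was seen among the lines with higher overall methylation, and little of it among the rest. The prefixes are the contrast that chose the regions, so this is a description. Of the 34 lines with a line mean of at least 20%, the 27 of B1 and B2 had Irak3 levels (mean of both regions) from 3.12% to 74.3%, with a median of 17.2%, and 12 of them were above 20%. The 7 of B3A and B3B ran from 0.996% to 15.4%, with a median of 4.61%, and none was above 20%. These 2 sets were not matched in line mean: 11 lines of B1 and B2 and 2 of B3A and B3B were at 30% or more. For line means from 20% to 30% the median Irak3 level was 10.5% in 16 B1 and B2 lines. It was 2.33% in 5 B3A and B3B lines. Between line means of 10% and 20% the median Irak3 level was 2.89% in the 17 B1 and B2 lines, 2 of them above 20%, and 1.86% in the 18 B3A and B3B lines. Below a line mean of 10% none of the 16 lines was above 20%, and only 2 of them were of B1 or B2. Single lines show how far Irak3 departed from the rest of the panel. Line B1dC17 had 80.0% and 68.7% at regions 1 and 2, with a line mean of 43.7%. Line B3Bd44N had 7.01% and 5.27% with a line mean of 40.4%. These lines had close line means and lay far apart at Irak3. The Irak3 level of B3Bd44N, 6.14%, was still above the median over all lines, 3.85%. Line B2d22 had 57.0% and 42.9% with a line mean of 23.2%, while B1dC16 had 5.64% and 0.590% with a line mean of 30.4%. The order of the 2 lines by line mean was thus opposite to their order at Irak3. These 4 lines were picked with their values in view.

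The 2 regions rose and fell together across lines, although they are separate capture targets. Pearson's r was 0.941 and Spearman's rho 0.706 over 82 lines, given as a description because pooling the lines includes the prefix contrast that chose the regions. Leaving out the 2 lines farthest from the region 1 median gave r of 0.911. Within prefixes, which leaves that contrast out, r was 0.958 and rho 0.941 in B1 (n = 26, permutation test with 100000 resamples, adjusted p = 2.22e-05 for each, over 20 correlations; the raw p of 1e-05 is the smallest that test can give). In B2, r was 0.892 and rho 0.816 (n = 18, adjusted p = 2.22e-05 and 0.00022). The agreement therefore held within both prefixes whose lines spread widely.

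In B3A the agreement was not shown, and in B3B it was called by r but not by rho. In B3A, r was -0.0672 and rho 0.0514 (n = 20, permutation test, adjusted p = 0.80 and 0.826). In B3B, r was 0.831 and rho 0.373 (n = 18, adjusted p = 0.000364 and 0.169), and r fell to 0.533 without the 2 farthest lines, so the B3B value rests largely on those lines. Some lines were split between the regions: B3Ad30 had 18.1% at region 1 and 0% at region 2, and B3Ad9N had 4.30% and 14.2%. In B2, line B2d17 had 0% and 12.9%. These 3 lines were picked with their values in view.

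**Figure D2:**
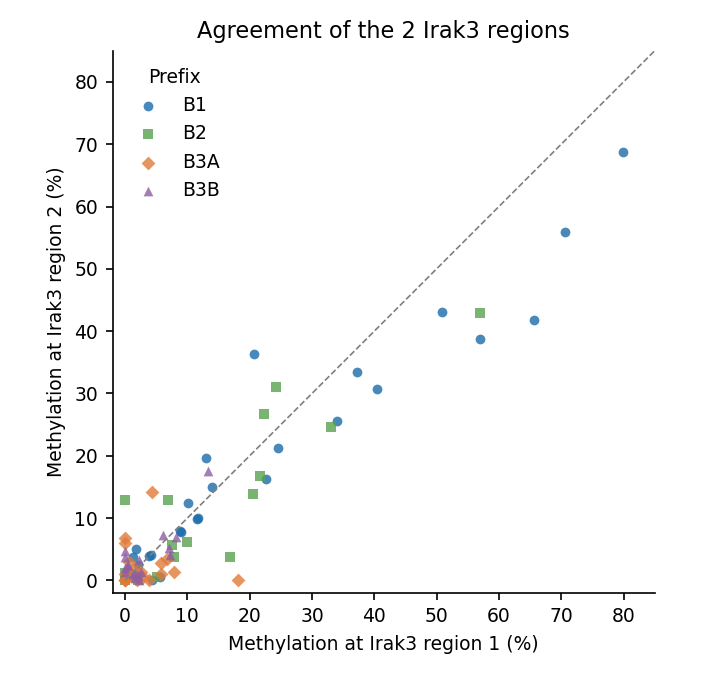
Methylation at Irak3 region 1 (horizontal axis, %) against region 2 (vertical axis, %) in the 82 lines with both values, marked by prefix, with a dashed line of equality. B1 and B2 lines spread along the line up to 80.0% and 68.7%, and B3A and B3B lines stay below 20%.

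Each Irak3 region followed the other more closely, by r, than it followed any of the other 785 regions. The highest r elsewhere was 0.722 for region 1 and 0.763 for region 2. By rho, 16 regions were higher than region 1 in their relation to region 2, and none was higher than region 2 in relation to region 1. After a straight line on the line mean was removed from every region, r between the Irak3 regions was 0.911 and rho 0.847, and the highest r elsewhere was 0.558 for region 1 and 0.516 for region 2. Proximity is shared by other targets: 5 other pairs of regions lie within 1 kb of each other without overlap. Their r ran from 0.639 to 0.935, with a median of 0.858. Pairs of overlapping targets were left out. Of those 5 pairs, none had a higher r than the Irak3 pair, 4 had a higher rho, and 1 had a higher r after the line mean was removed. These correlations across regions are descriptions, since all regions of a line share its library.

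Region 1 was slightly higher than region 2. Its level was higher in 49 lines, lower in 29 and equal in 4, with a mean difference of 1.65 percentage points ± 6.33 (SD, n = 82; two-sided sign-flip permutation test, adjusted p = 0.0382 over 10 tests). On the log2 odds scale the mean difference was 0.17 and the call was lost (permutation test, p = 0.259). In absolute terms the gap sat in the highly methylated lines. Among the 14 lines with an Irak3 level above 20% region 1 was higher in 11 and the mean difference was 6.92 points, whereas among the 44 lines below 5% it was higher in 22 and lower in 18. Within prefixes the mean difference was 3.54 points for B1 (permutation test, adjusted p = 0.0510), 1.89 for B2 (0.314), 0.947 for B3A (0.494) and -0.531 for B3B (0.376), and none passed the threshold.

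Irak3 was less methylated than the panel average of the same line. The mean of Irak3 minus the line mean was -8.26 points ± 11.97 (SD, n = 85), and Irak3 was lower in 72 lines (two-sided sign-flip permutation test, adjusted p = 3.33e-05). In B3A the difference was -10.1 points, with Irak3 lower in 19 of 20 lines. In B3B it was -12.7 points, lower in 19 of 19. In B2 it was -8.46 points, lower in 15 of 18, and in B1 it was -3.86 points, lower in 19 of 28. The prefix means chose the regions, so the differences within prefixes are given as a description. The test over all lines includes those same values, so its p-value and those below are no separate support for the lower level. The comparison depends on what stands for the line. Against the median over the 785 regions the difference was -4.33 points (permutation test, p = 0.00134), and against the mean of the 7917 CpGs, which was 12.2% ± 6.55 (SD, n = 85), the difference was -1.48 points (permutation test, p = 0.280).

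Irak3 rose with the line mean in B1, and the relation was weaker or not shown in the other prefixes. Over all 85 lines r was 0.629 and rho 0.682, again a description since prefixes are pooled, and r was 0.546 when the 2 lines with the most extreme line means were left out. In B1, r was 0.734 and rho 0.729 (n = 28, permutation test, adjusted p = 2.22e-05 for each), with r of 0.665 without the 2 farthest lines. In B2, r was 0.476 and rho 0.664 (n = 18, adjusted p = 0.0654 and 0.0051). The relation was thus present in B1 by both measures and in B2 by rank. In B3A, r was 0.206 and rho 0.227 (n = 20, permutation test, adjusted p = 0.430 and 0.392). In B3B, r was 0.614 and rho 0.289 (n = 19, adjusted p = 0.0226 and 0.289), and r was -0.0460 without the 2 farthest lines, so the B3B relation rests on those 2. Irak3 and the line mean come from the same library, so any property of a library that moves all regions enters both.

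**Figure D3:**
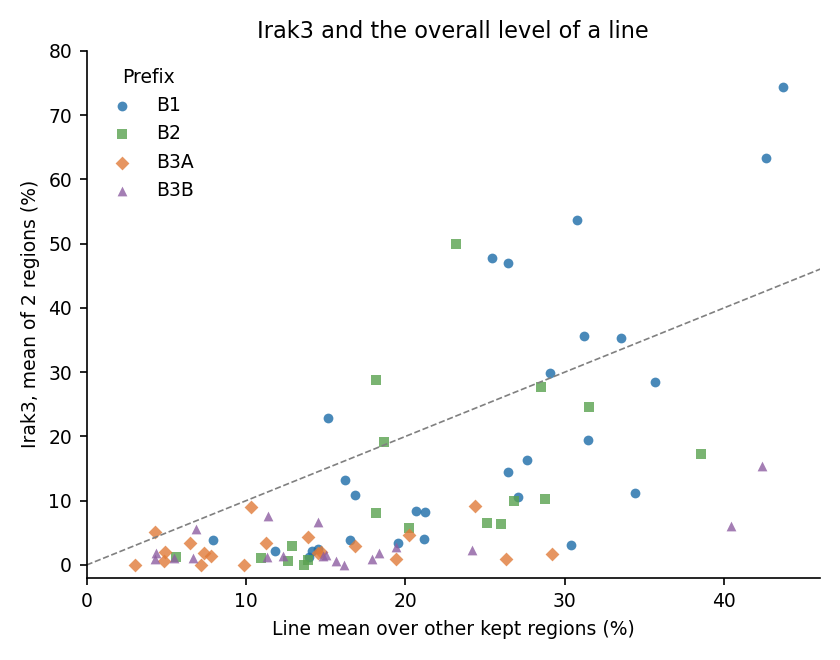
Irak3 level (mean of both regions, %, vertical axis) against the mean of the 785 other regions of the same line (%, horizontal axis), 1 point per line and marked by prefix, with a dashed line of equality. Above a line mean of 20% the B1 and B2 lines fan out from 3.12% to 74.3%, and the B3A and B3B lines stay at or below 15.4%.

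Each Irak3 region varied more between lines than the 20 regions nearest to it in mean level. Against the 20 regions nearest in mean (10 above and 10 below), region 1 had an SD of 17.5 points, above all 20 (7.08 to 14.9), and region 2 an SD of 14.01 points, above all 20 (4.58 to 13.9). The highest line reached 80.0% at region 1, against 31.2% to 66.8% at its neighbours; at region 2 it reached 68.7%, and 1 of 20 neighbours went higher, to 71.5%. At the same time 50% of the lines were below 5% at region 1, against 14.1% to 49.4% of lines at its neighbours. The relation of region 1 to the line mean was looser than at all 20 neighbours, with r of 0.586 against 0.657 to 0.974. For region 2, r was 0.663, and 16 of its 20 neighbours were higher. These SDs include the differences between prefixes that chose the regions, so the ranks are given without a test.

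In the B6J category 71 other regions were kept, and their medians were a mean of 17.3%, an SD of 13.96 points and an r with the line mean of 0.763. Region 1 lay below 45 and region 2 below 51 of these regions in mean level, while 49 and 36 of them had a smaller SD. Within the category region 2 thus stood at the median SD, and region 1 above it. For r with the line mean, 18 of the 71 were below region 1 and 53 above it. At region 2 these counts were 23 and 48. The level neighbours with the highest SD were also of this category. They were Catsperg2 for region 1 (14.9 points) and D630039A03Rik with Gm42293 for region 2 (13.9 points).

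**Figure D4:**
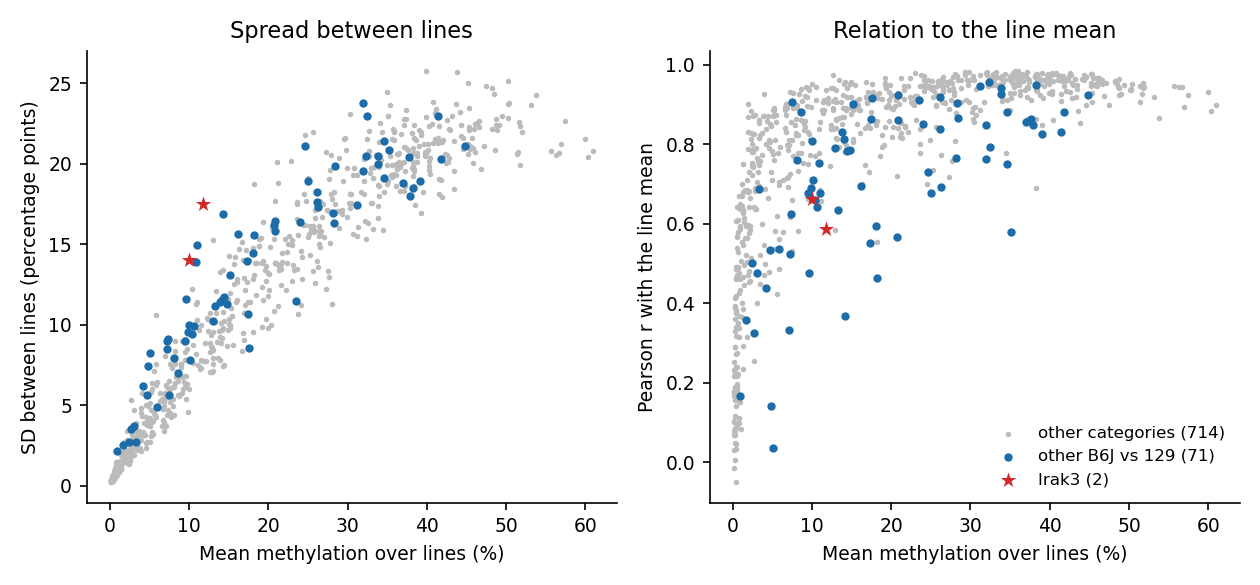
Left, SD between lines (percentage points) and right, Pearson's r with the line mean, each against the mean methylation of a region over lines (%), for 787 regions. Stars mark the Irak3 regions, whose SDs of 17.5 and 14.01 points lie above those of the 20 regions nearest to each in mean.

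The regions whose rank order over lines was most like that of Irak3 were mainly those that follow the line mean. By rho with the Irak3 level, the 5 nearest were at Igbp1b (0.745), BC147527 (0.736), Ctag2l1 (0.734), Tubb6 (0.731), a beta-tubulin gene, and Qprt (0.725), an enzyme gene of NAD synthesis, over 73 to 85 lines. Their own r with the line mean ran from 0.941 to 0.983. When the line mean was subtracted from both sides, the 5 nearest were at Catsperg2 (0.536), a gene of the sperm cation channel complex, Hes7 and 9130213A22Rik (0.461), Calhm3 (0.436), Morc1 (0.436), a germ-cell gene, and Pakap (0.431), over 85 lines. Catsperg2 is also in the B6J category, with a mean of 11.02% ± 14.9 (SD, n = 85) and prefix means of 18.01% in B1, against 7.23%, 7.63% and 7.87% in B2, B3A and B3B. Subtracting 1 line mean from both values puts that mean into both, so these rho values are descriptions.

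Other genes of the pathway in which Irak3 acts were almost absent from the panel. Of 67 listed genes of Toll-like receptor and interleukin-1 receptor signalling, 64 were in the gene table and 3 had a target region in or near them. The region nearest to Tlr2, a receptor for bacterial lipoproteins, lay 1922 bp away and had a mean of 32.7% ± 20.5 (SD, n = 84). The region at Il18, a cytokine of the interleukin-1 family, had 19.3% ± 11.5 (n = 85), and that at Ly86, which encodes the partner protein of the receptor-like Cd180, had 37.3% ± 20.9996 (n = 85).

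All 3 were called between prefixes by limma (adjusted p = 0.000276 at Tlr2, 0.000432 at Il18 and 0.000441 at Ly86), against 81.6% of all regions. At Tlr2 the mean was 43.5% ± 18.7 in B1 and 18.4% ± 14.4 in B3A (SD, n up to 28 and 20). With the line mean as a covariate none of the 3 was called (limma, adjusted p = 0.502, 0.324 and 0.851). They followed the line mean with r of 0.948, 0.966 and 0.945, against 0.586 and 0.663 at the Irak3 regions, a difference that was not tested.

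The stem cell identity in the labels could be set only against methylation. Of 10 listed pluripotency genes, 4 had a region. Nanog had 0.360% ± 0.599 (SD, n = 85), Tbx3 0.191% ± 0.381 (n = 83), Zfp42 0.792% ± 1.44 (n = 80) and Dppa3 6.26% ± 6.47 (n = 64). Regions at these genes were thus near unmethylated, with Dppa3 somewhat higher and missing in many lines. No other target region lay within 1 Mb of Irak3. The nearest with values, at Ptprr and Taf7l2, was 4027 kb away, so the reach of the variable methylation around Irak3 cannot be given.

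Names of some columns carry marks whose meaning is not given, and these contrasts did not choose the regions. A final N stood on 31 columns, all in B1, B3A and B3B. With prefix in the model, columns with it differed from the others by -0.41 (95% interval -1.36 to 0.53) on the log2 odds scale at region 1 and by 0.34 (-0.52 to 1.21) at region 2 (limma, adjusted p = 0.751 and 0.767). Of 787 regions limma called 0%, that is 0 regions, and 11 had an unadjusted p below 0.05. In B3A region 1 was 1.89% ± 2.35 with a final N (SD, n = 16) and 8.63% ± 6.42 without (n = 4). The difference between prefixes in this contrast did not pass (limma interaction, adjusted p = 0.995 at each region). The intervals leave room for a difference of 1 unit of log2 odds, downward at region 1 and upward at region 2.

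A second title, ending in WA, existed for 16 of the lines. With prefix in the model, limma called 29.5% of 787 regions, 232 in all and every one of them higher in lines with it, and 45 when the line mean was a covariate. The mean of the line means was higher with a second title in B1, B2 and B3B, and lower in B3A (11.4% ± 10.05, n = 4, against 13.2% ± 7.46, n = 16, SD). The Irak3 regions were not among the 232, with differences of 0.66 (95% interval -0.32 to 1.63) at region 1 and 0.62 (-0.29 to 1.52) at region 2 on the log2 odds scale (limma, adjusted p = 0.204 and 0.200). The median difference over all 787 regions was 0.61, close to both. The sources do not say which of the 2 libraries a column of such a line holds.

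One line name occurred with and without the final N, and the titles list both. B1dB37 had 3.76% and 3.86% at regions 1 and 2 and B1dB37N had 1.29% and 3.71%, with line means of 16.5% and 14.5%. Over the 787 regions their r was 0.967, and they differed by 2.93 percentage points on average. At Irak3 they differed by less than that, far below the SD between B1 lines. Both columns were low at Irak3, so this does not show how closely high values would repeat. Whether they are 1 line read in 2 libraries is not given. No pair of the 85 columns held identical values.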

How the data were processed

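EM-seq libraries captured with a Twist panel were analysed as 85 columns of deposited values. The authors deposited average methylation as a fraction per target region (868) and per CpG (7917); the values are printed as percent. Trim Galore 0.6.4, Bismark, Bowtie2 and mm10 are named per the submitters' processing notes, without roles. A coverage of 10 stands in the deposited tables' names. No read counts were given, so depth is unknown and no counting interval or floor was computed.

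Columns were matched to 101 titles by name: 44 matched 1 title, 16 named a line with 2 titles, 24 had a final N that the title lacks and 1 matched none; these last 41 entered only through their prefix. The 787 regions measured in 80% of the lines or more were kept (690 to 787 of them per line). Differences and correlations were tested by permutation with 100000 resamples in NumPy 2.4.6. Contrasts over all kept regions were fitted with limma 3.58.1 (R 4.3.3) to log2 odds, with an offset of 0.01 added to the fraction and to its complement, and p-values were adjusted by Benjamini-Hochberg. Normal values were simulated for the final N contrast, independently for each of 787 regions. There limma recovered 64 of 100 regions shifted by 1 unit of log2 odds and 98 of 100 shifted by 2. It made 6 false calls among the regions that were not shifted. Real regions of a line move together, so these rates may not hold for the deposited data or for Irak3.

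Named regions are Irak3, the 5 most alike by rho with and without the line mean, 20 level neighbours and every measured gene of the lists. The members and lists were chosen with earlier results of these data known. Labels do not say whether columns are separate cultures, so p-values measure the spread between columns, which may be technical.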

Additional observations from a re-analysis of the deposited data

Results flagged for a closer look

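Line B3Bd8 had 17.5% at region 2, far above the other 9 B3B lines without a final N, with a gap of 0.603 of the group's range against a limit of 0.466 for 10 lines. It also had 13.3% at region 1 and a line mean of 42.4%, the highest in B3B. It was 1 of 14 groups of values looked at, and these groups share lines. Chance alone gives about 1 in 20 groups such a value where values are normal. The values here are skewed and bounded at 0, so the rate for them is not known.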

How the results depend on the processing

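Of 38 alternative values, 32 were counted as unchanged. For a test this means the same direction and side of the threshold, and it includes contrasts that were never called. For the region means and the count of regions called between prefixes, it means only a limited change in value. The difference between the Irak3 regions was no longer called on the log2 odds scale (0.17, permutation test, p = 0.259) or over the columns that match 1 title (2.04 points, p = 0.0546). Irak3 minus the line mean shrank to -4.33 points with the median over regions as the level of the line (p = 0.00134), and lost its call against the CpG table (-1.48 points, p = 0.280), an alternative chosen after seeing the data. The cause was not tested. The final N contrast at region 1 turned to 0.00319 on the fraction scale (limma, adjusted p = 0.987), and the second title contrast at region 2 turned to -0.0632 with the line mean as a covariate (limma, adjusted p = 0.940); neither was called in any setting. The count of regions called between prefixes was 642, 569 on fractions and 26 with the line mean as a covariate. For a second title it was 232, 329 on fractions and 45 with that covariate. The correlation of the Irak3 regions ran from 0.794 on the log2 odds scale to 0.941. After seeing the data, the line mean was first subtracted from both regions (r = 0.908), which puts a shared term into both, and residuals from a straight line on it were then added (r = 0.911); both are kept. Among the 5 other near pairs, 2 had a higher r than Irak3 after subtraction and 1 after the straight line was removed.

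Levels recomputed from single CpGs were not run, since no CpG of that table lies in Irak3. Columns could not be paired between prefixes, because they carry no replicate numbers shared between prefixes. Depth is unknown, so low values and listed zeros cannot be ranked by their precision, and the absence of agreement in B3A was not separated from sampling noise.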
